A study of Mus musculus with 93 samples.

Results

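The genes described here encode the ligands named Bmp, Gdf and Tgfb, their receptors, the SMAD proteins and the secreted antagonists noggin, chordin, follistatin and gremlin. They were found by a rule on gene names, and 49 of the 33924 gene names in the deposited RNA tables matched. By role they comprised 10 BMP-type ligands, 10 GDF ligands, 3 TGF-beta ligands, the protease gene Bmp1, 7 type I receptors, 4 type II receptors, the co-receptor Tgfbr3, 5 receptor-activated SMADs, the common Smad4, 2 inhibitory SMADs and 5 antagonists. Bmp1 carries the family's name, but it encodes a metalloprotease that matures procollagens and cleaves chordin.

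Ligands of the family bind a pair of type II and type I receptor kinases, and the type I kinase then phosphorylates receptor-activated SMADs. BMPs and several GDFs signal mainly through SMAD1, SMAD5 and SMAD9, whereas TGF-beta, activin and Nodal signal through SMAD2 and SMAD3, and both arms share SMAD4. SMAD6 and SMAD7 feed back on the receptors, and secreted antagonists keep ligands from them. In mouse embryonic stem cells grown in serum, BMP4 is known for inducing Id genes that act beside leukaemia inhibitory factor, and Nodal-type signals are known for their part in leaving pluripotency.

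Messenger RNA levels were compared in R1, a mouse embryonic stem cell line, cultured with fetal bovine serum and leukaemia inhibitory factor. Set 1 holds wild type cells and cells with the genotype Ring1b I53A, a substitution in the E3 ligase of Polycomb repressive complex 1 that is known to impair ubiquitination of histone H2A. Set 2 holds another wild type group and cells with the genotype H1b/c/d/e-QKO, a knockout of genes for linker histone H1. Each of the 4 groups has 3 libraries. The labels name no treatment and do not say how many clones of a genotype were used or whether the replicates are separate cultures. The p-values therefore speak only of spread among libraries, which may be technical.

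RefSeq start-site windows (build GRCm38.p6) were found for 32 of the 49 genes, 40 windows in all, and the 250 bases upstream of the start held a median of 21.5 CpG dinucleotides, against 6 over all 32851 windows of the table. The observed over expected CpG ratio had a median of 0.727 in these windows and 0.374 over the table, and the windows ranged from 1 to 49 CpG. Polycomb complexes are known to collect at CpG-dense start sites in embryonic stem cells, so the windows of 5 genes are shown. These are the genes that changed at least 2-fold in either mutant and have exactly 1 window. Each line gives the 250 bases 5′ to 3′ on the strand of the gene, with CpG in capitals.
Bmp6: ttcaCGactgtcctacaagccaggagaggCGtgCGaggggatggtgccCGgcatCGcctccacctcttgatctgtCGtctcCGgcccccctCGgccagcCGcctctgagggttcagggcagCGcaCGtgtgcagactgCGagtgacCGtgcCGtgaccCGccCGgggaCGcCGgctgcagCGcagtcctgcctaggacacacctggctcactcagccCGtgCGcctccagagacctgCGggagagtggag
Bmp8b: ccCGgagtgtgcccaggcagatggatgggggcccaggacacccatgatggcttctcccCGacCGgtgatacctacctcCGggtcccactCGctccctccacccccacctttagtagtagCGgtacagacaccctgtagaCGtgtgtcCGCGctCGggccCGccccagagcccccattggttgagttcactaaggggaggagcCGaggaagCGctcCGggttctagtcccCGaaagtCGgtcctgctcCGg
Chrd: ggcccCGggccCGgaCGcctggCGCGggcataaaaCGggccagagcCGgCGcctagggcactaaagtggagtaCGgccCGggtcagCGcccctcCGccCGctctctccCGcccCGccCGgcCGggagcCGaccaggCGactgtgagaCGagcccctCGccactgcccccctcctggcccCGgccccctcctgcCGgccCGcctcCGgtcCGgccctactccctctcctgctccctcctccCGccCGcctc
Tgfb2: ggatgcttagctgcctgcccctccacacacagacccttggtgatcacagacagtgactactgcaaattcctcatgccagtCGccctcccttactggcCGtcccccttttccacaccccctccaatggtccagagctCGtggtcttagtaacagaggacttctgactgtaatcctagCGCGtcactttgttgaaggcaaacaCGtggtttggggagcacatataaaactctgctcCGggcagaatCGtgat
Tgfbr2: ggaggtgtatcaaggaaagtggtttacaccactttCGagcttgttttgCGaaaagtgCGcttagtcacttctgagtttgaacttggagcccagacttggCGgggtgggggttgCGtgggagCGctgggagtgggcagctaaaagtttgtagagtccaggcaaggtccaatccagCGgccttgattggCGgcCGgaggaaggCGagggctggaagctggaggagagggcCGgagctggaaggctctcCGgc

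The window of Bmp6 lies at chr13:38345466-38345715, plus strand, and holds 22 CpG. That of Bmp8b lies at chr4:123104911-123105160, plus strand, and holds 17. The window of Chrd, at chr16:20732877-20733126, plus strand, is the densest of the 5 with 28 CpG. Tgfb2, at chr1:186705990-186706239, minus strand, has 8 CpG and Tgfbr2, at chr9:116175364-116175613, minus strand, has 12, the fewest among those shown. The letters GGCGCC, a palindrome of the kind bound by SMAD complexes at BMP-responsive elements, occurred in 8 of the 40 windows (20%) and in 9.59% of all windows. GGCGCC itself holds a CpG, and these windows are richer in CpG than the table (median 21.5 against 6). No background matched for CpG was taken, and the part of base composition in these shares was not tested. Among the 5 windows shown GGCGCC occurred only in Chrd. The GATA-type letters AGATAA, searched on both strands, occurred in 4 of the 40 windows (10%) and in 9.99% of all windows, and in none of the 5 shown. AGATAA holds no CpG, so its shares are no control for the CpG density of these windows.

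Depth ranged from 12585621 to 23378930 counts per library, of which the 49 genes took 0.0740% to 0.0928%, and 37 to 43 of them had a count in any library. The gene of RING1B, Rnf2, stood at 178 to 193 CPM in wild type and at 85.8 to 98.2 CPM in I53A libraries of set 1, and gene counts cannot show the substitution itself. CPM are counts relative to the library total, after scaling within a set. The targeted H1 transcripts did not bear out the label of the knockout: Hist1h1b had 4, 9 and 2 counts in wild type and 62, 53 and 72 counts in the libraries labelled QKO, and Hist1h1c had 143, 173 and 205 against 174, 129 and 202. Hist1h1d (10, 3 and 14 against 15, 7 and 5 counts) and Hist1h1e (6, 0 and 2 against 12, 3 and 7) were near the floor in both groups. The sources used here do not say where the deletions lie, so these counts may not test them, and the group is called the libraries labelled QKO. Replicate 3 of both set 1 groups stood apart from replicates 1 and 2, and the set 1 counts of called genes are also given without it.

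Embryonic stem cell markers were present in all groups, with a summed level over 9 genes of 6245 to 6767 CPM in wild type and 5322 to 5584 CPM in I53A libraries, and of 5709 to 5912 CPM against 6656 to 6813 CPM in set 2. Of the 9, 4 fell and none rose in I53A (2 higher and 5 lower with the replicate number as a block). In libraries labelled QKO 5 rose, and Dppa5a, Esrrb and Klf4 fell. Over all genes tested, 18.1% were called higher and 17.4% lower in I53A, and 28.7% and 29% in libraries labelled QKO. With the block the I53A shares were 28.1% and 28.5%. The marker counts of this paragraph stand beside these shares. Primitive endoderm markers were summed over 15 genes. They stood at 377 to 414 CPM in wild type and 3631 to 3772 CPM in I53A libraries, and all 15 rose (edgeR, adjusted p under 0.05). In set 2 the same sum was 258 to 280 CPM in wild type and 356 to 367 CPM in libraries labelled QKO, where 8 of 13 tested markers rose and none fell. Fibroblast markers, over 11 genes, were lower throughout, at 34.2 to 34.9 CPM against 72.6 to 77.3 CPM in set 1 and 30.1 to 32.5 CPM against 61.9 to 65.1 CPM in set 2. Of these, 5 of 7 tested rose in I53A and 4 of 6 in libraries labelled QKO, and none fell. Dcn and Postn had no count in set 1 wild type and Lum had none in I53A. Col3a1, Dcn, Lum, Postn and Acta2 had none in set 2 wild type, and Dcn and Lum had none in libraries labelled QKO. Summed trophoblast markers, over 7 genes, were 37.9 to 42.2 CPM against 114 to 123 CPM in set 1 and 57.3 to 67.0 CPM against 28.9 to 31.7 CPM in set 2. Of the trophoblast markers, 4 of 5 tested rose in I53A and 3 of 4 fell in libraries labelled QKO. Mesoderm markers, over 6 genes, summed to 4.59 to 6.07 CPM against 20.7 to 26.3 CPM in set 1 and to 3.03 to 4.31 CPM against 2.42 to 3.12 CPM in set 2. In I53A T, Kdr and Hand1 rose, while Mixl1 and Tbx6 were not called. In libraries labelled QKO 1 of 3 tested mesoderm markers fell and none rose. Neural markers, over 4 genes, summed to 11.2 to 12.9 CPM against 28.4 to 31.5 CPM in set 1 and to 12.7 to 13.1 CPM against 25.2 to 27.8 CPM in set 2. The neural list did not move as a whole: Nes rose and Pax6 fell in both mutants, and Zic1 rose in I53A. These shifts accompany every result below, and their part in the results was not tested. In bulk RNA, more cells of a kind and more RNA per cell cannot be told apart.

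Levels were compared between genes per length, as RPKM, that is CPM per kilobase of exon. In set 1 wild type libraries, Smad4 (28.1 ± 2.92 RPKM, SD, n = 3) and the GDF ligand Gdf3 (28 ± 3.86 RPKM) stood highest and overlapped. The nodal and activin transducer Smad2 followed at 17.6 ± 1.32 RPKM, with the type I receptors Bmpr1a at 17.2 ± 1.02 and Acvr1b at 16.2 ± 1.08, and these did not differ beyond their spread. In set 2 wild type libraries, Smad4 led with 33 ± 0.601 RPKM, ahead of Smad7 (21.7 ± 1.92), Gdf3 (20.9 ± 1.86) and Acvr1b (20.4 ± 1.14), which overlapped. Among BMP-type ligands Bmp4 was highest in both wild type groups, at 14.2 ± 0.605 and 15.6 ± 1.16 RPKM, followed by Bmp7 at 1.81 ± 0.297 and 3.46 ± 0.502. Tgfbr2, the type II receptor for TGF-beta ligands, was at 0.222 ± 0.0674 and 0.239 ± 0.0511 RPKM, while its type I partner Tgfbr1 was at 7.53 ± 0.55 and 6.67 ± 0.381. The BMP type I receptors were similarly unequal, since Bmpr1b stood at 0.147 ± 0.043 and 0.232 ± 0.101 RPKM, far under Bmpr1a. Gdf1 and Bmp5 had no count in any of the 12 libraries. All exon bases of Gdf1 are shared with Lass1 or Upf1 in the annotation used for counting, so a zero there does not speak of its level. Bmp5 shares 46.7% of its exon bases and Gdf5 shares 40.3%.

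The first comparison asks which of these genes differ when RING1B carries I53A. Of 36 genes that passed the count filter, 9 rose and 5 fell at an adjusted p under 0.05 (edgeR quasi-likelihood test, adjusted over all 15536 genes tested). That is 38.9% of the tested genes, close to the 35.5% called among all genes, of which 18.1% were higher and 17.4% lower. Log2 fold changes are mutant against wild type and stand with their SE. Changes of at least 2-fold were called for 7 of the 36 and for 12% of all genes. The largest increases were in the ligands Bmp2 and Bmp6, the protease gene Bmp1, Tgfbr2 and Bmp8b, while Gdf15 and Gdf3 fell most. In 24 of the 36 genes the groups did not overlap, a larger share than the 49.4% of all genes. The median log2 fold change was 0.19 against -0.0010 over all genes. The replicate numbers of set 1, taken from the labels, were taken to pair the libraries, although the names of the deposited tables exchange numbers 1 and 2 of I53A. With the replicate number as a block, 16 genes rose and 9 fell, including all 14 called without it. That is 69.4% of the tested genes, beside 56.6% of all genes. With the exchanged numbers 15 rose and 8 fell, and 8410 of 15536 genes were called. Without replicate 3 of both groups, 13 rose and 8 fell, and 53.1% of all genes were called. Leaving out I53A replicate 1 or I53A replicate 2 left 2 genes lower, and fewer of all genes were called (3828 of 15914 and 4132 of 15878).

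Of 6 tested BMP-type ligands, 3 rose and none fell by edgeR, while 1 was lower at an unadjusted p under 0.05 and none was lower by DESeq2. Over all genes 18.1% were called higher in I53A. Bmp2 passed the count filter only through its I53A libraries, so its rise lends no separate support to this count. Bmp2, a ligand of BMPR1A, had 1, 0 and 0 counts in wild type and 34, 44 and 25 counts in I53A libraries. Expressed as summed counts over depth, Bmp2 was 103.7 times higher, with an exact 95% interval for counting error of 18.2 to 4134 (edgeR adjusted p = 0.000226). Bmp6, which signals mainly through ACVR1, was at 0.843, 0.391 and 1.22 CPM in wild type and 5.54, 7.99 and 9.08 CPM in I53A. Every I53A library lay far above every wild type library, and the log2 fold change was 3.23 ± 0.37 (adjusted p = 0.000383). Bmp8b, a close relative of Bmp6 in sequence and receptor use, was at 2.02, 1.28 and 1.53 CPM against 5.16, 4.45 and 6.87 CPM. Its groups did not overlap either, with a log2 fold change of 1.75 ± 0.27 (adjusted p = 0.00155). Bmp8a, whose sequence is so near that of Bmp8b that reads could be shared, was at 1.01, 1.06 and 3.06 CPM against 3.33, 3.21 and 4.11 CPM. Wild type replicate 3 lay near the I53A libraries, and the log2 fold change of 1.09 ± 0.42 (adjusted p = 0.0756) did not pass. It passed with the block (adjusted p = 0.00341), by DESeq2 (0.046) and without wild type replicate 3 (0.00206).

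The BMP-type ligand with the highest level was not called in I53A. Bmp4 was at 32.5, 30.1 and 32.5 CPM in wild type and 27.4, 28.4 and 33.2 CPM in I53A, and the groups overlapped. Its log2 fold change was -0.10 ± 0.10 (adjusted p = 0.514). Bmp7 was at 7.08, 6.2 and 8.56 CPM against 3.77, 4.73 and 6.16 CPM, and although every I53A library lay under every wild type library, its log2 fold change of -0.58 ± 0.22 (adjusted p = 0.0735) did not pass. With the replicate block the adjusted p for Bmp7 was 0.0102, and without I53A replicate 3 it was 0.0265. Bmp3, Bmp5, Bmp10 and Bmp15 had at most 3 counts in any set 1 library and were not tested. Neither were Gdf1, Gdf2, Gdf5, Gdf7 and Acvr1c in either set.

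Among 4 tested GDF ligands, Gdf3 and Gdf15 fell and none rose, beside 17.4% of all genes called lower and 18.1% higher. Gdf3, a Nodal-like ligand of pluripotent cells that can also block BMPs, was at 56, 53.5 and 68.8 CPM in wild type and 27.5, 31.9 and 36.8 CPM in I53A. The highest I53A library lay well under the lowest wild type library, and the log2 fold change was -0.89 ± 0.14 (adjusted p = 0.00165). Gdf15, a distant member induced by cell stress that acts on a receptor outside the family, was at 2.47, 2.23 and 5.2 CPM against 1.39, 0.506 and 1.03 CPM. Its groups did not overlap, though wild type replicate 3 was far above the others, and the log2 fold change was -1.74 ± 0.46 (adjusted p = 0.0203). Without I53A replicate 2 its adjusted p was 0.0674. Gdf11, which signals through SMAD2 and SMAD3, and the oocyte factor Gdf9 overlapped between groups, with log2 fold changes of -0.09 ± 0.21 (adjusted p = 0.773) and 0.19 ± 0.42 (adjusted p = 0.757). Gdf6 had 0, 0 and 0 counts in wild type and 9, 1 and 6 in I53A libraries, at least 5.37-fold higher with the wild type group set at 3 counts. Gdf10 had 0 counts in wild type against 8, 0 and 1, at least 3.02-fold higher by the same floor but resting on replicate 1.

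None of the 3 TGF-beta ligands passed edgeR's test in I53A, and none had an unadjusted p under 0.05 or a DESeq2 call. Tgfb1 was at 17.5, 15.2 and 30.9 CPM in wild type and 22.4, 22.6 and 37.4 CPM in I53A. Replicate 3 was the highest library of each group, and the groups overlapped for that reason (log2 fold change 0.38 ± 0.32, adjusted p = 0.4). With the replicate block the adjusted p for Tgfb1 was 0.00148, since each I53A library exceeded the wild type library of its own number. The low Tgfb2 and Tgfb3 overlapped between groups, with log2 fold changes of -0.42 ± 0.55 (adjusted p = 0.593) and 0.11 ± 0.51 (adjusted p = 0.892). The protease gene Bmp1 was at 3.99, 3.85 and 3.59 CPM against 13.3, 13.6 and 14.8 CPM. The spread within groups was small beside the gap, and its log2 fold change was 1.86 ± 0.14 (adjusted p = 4.59e-05).

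All 4 type II receptors were called in I53A, 3 higher and 1 lower, beside 35.5% of all genes. Of the 6 tested type I receptors none was called by edgeR or DESeq2, 3 were higher at an unadjusted p under 0.05, and 4 passed with the replicate block. The difference between these roles was not tested. Tgfbr2 was at 1.74, 1.28 and 2.37 CPM in wild type and 6.15, 6.47 and 6.79 CPM in I53A, without overlap. Its log2 fold change was 1.86 ± 0.24 (adjusted p = 0.000707). Bmpr2, the type II receptor dedicated to BMPs, was at 19.8, 23.1 and 23.8 CPM against 34.8, 36.6 and 28.7 CPM (log2 fold change 0.59 ± 0.12, adjusted p = 0.00733). The activin and BMP receptors Acvr2a and Acvr2b moved in opposite directions. Acvr2a was at 19.7, 17.8 and 18.7 CPM against 26.6, 24.7 and 23.3 CPM and rose by 0.41 ± 0.10 (adjusted p = 0.0142) on the log2 scale. Acvr2b was at 16, 16.3 and 21.5 CPM against 12.5, 10.8 and 13.5 CPM, a log2 fold change of -0.55 ± 0.16 (adjusted p = 0.0265). Both changes were modest, and both calls were lost without I53A replicate 1, at adjusted p = 0.0683 for Acvr2a and 0.0772 for Acvr2b. That of Acvr2a was also lost without wild type replicate 2 (0.0642), and that of Acvr2b without wild type replicate 3 (0.0509) or I53A replicate 2 (0.0949). The co-receptor Tgfbr3, betaglycan, which presents TGF-beta ligands and inhibin, was at 3.03, 2.9 and 2.75 CPM against 6.54, 6.13 and 8.85 CPM. Every I53A library was above 6 CPM, and the log2 fold change was 1.30 ± 0.20 (adjusted p = 0.00168).

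Bmpr1a, the main BMP type I receptor of these cells by level, was at 102, 112 and 114 CPM in wild type and 92.3, 102 and 98.7 CPM in I53A. The groups did not overlap by a narrow margin, and the log2 fold change was -0.17 ± 0.08 (adjusted p = 0.129). The activin and Nodal receptor Acvr1b was at 57.1, 52.4 and 50.2 CPM against 49, 47.9 and 43 CPM (log2 fold change -0.19 ± 0.09, adjusted p = 0.14), and Tgfbr1 was at 47.8, 46.5 and 53.3 CPM against 60.9, 62 and 53.8 CPM (log2 fold change 0.26 ± 0.09, adjusted p = 0.0608). In 5 of the 6 tested type I receptors the groups did not overlap, beside 49.4% of all genes. With the replicate block, Tgfbr1 and the endothelial-type receptor Acvrl1 passed as higher (adjusted p = 0.00545 and 0.0335), and Tgfbr1 also passed without wild type replicate 3 (0.032) or I53A replicate 3 (0.0326). The block likewise called Bmpr1a and Acvr1b lower (adjusted p = 0.00659 and 0.0151). Acvr1 and Bmpr1b had log2 fold changes of 0.19 ± 0.23 (adjusted p = 0.574) and 0.80 ± 0.34 (adjusted p = 0.101).

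Of 5 receptor-activated SMADs, Smad2 rose, Smad1 and Smad3 fell, and Smad5 and Smad9 were not called. Over all genes 35.5% were called. The BMP transducer Smad1 was at 33.8, 33.9 and 47.3 CPM in wild type and 21.8, 25.6 and 28.4 CPM in I53A. The groups did not overlap, with wild type replicate 3 the highest, and the log2 fold change was -0.60 ± 0.16 (adjusted p = 0.0199). Smad5, its partner in the same arm, was at 70.3, 66.8 and 66 CPM against 75.8, 73.4 and 79.5 CPM (log2 fold change 0.17 ± 0.07, adjusted p = 0.105, and adjusted p = 0.0154 with the block). The transducers of TGF-beta, activin and Nodal, which act together, went opposite ways. Smad2 was at 65.5, 65 and 57.2 CPM against 82.5, 75.3 and 80.2 CPM and rose by 0.34 ± 0.08 (adjusted p = 0.0147) on the log2 scale. Smad3 was at 27, 26.7 and 31.1 CPM against 19.3, 19.6 and 22.1 CPM, with a log2 fold change of -0.47 ± 0.11 (adjusted p = 0.0101). Each of the 3 calls was lost without I53A replicate 1, at adjusted p = 0.0847 for Smad1, 0.0679 for Smad2 and 0.0515 for Smad3, and that of Smad1 also without I53A replicate 2 (0.0595).

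The shared Smad4 was at 103, 94.1 and 116 CPM in wild type and 108, 106 and 126 CPM in I53A, overlapping (log2 fold change 0.12 ± 0.10, adjusted p = 0.392, and adjusted p = 0.0323 with the block). The inhibitory Smad7, which TGF-beta and BMP signals are known to induce, was at 37.4, 32.2 and 56.8 CPM against 51.8, 54.6 and 77.7 CPM. Replicate 3 was again highest in both groups and made them overlap, so that the log2 fold change of 0.54 ± 0.24 (adjusted p = 0.124) did not pass. With the replicate block the adjusted p for Smad7 was 4.73e-06, and without wild type replicate 3 it was 0.0123. Smad6, the inhibitor more selective for BMP signals, was at 6.96, 5.36 and 12.5 CPM against 8.43, 5.96 and 12.6 CPM, with replicate 3 high in both groups and a log2 fold change of 0.13 ± 0.37 (adjusted p = 0.821).

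Of 3 tested antagonists none was called in I53A by edgeR without the block or by DESeq2, and 1 was lower at an unadjusted p under 0.05. Chrd, which sequesters BMPs, was at 6.18, 4.91 and 6.96 CPM in wild type and 6.71, 6.19 and 6.4 CPM in I53A, and the groups overlapped. The activin binder Fst was at 4.33, 5.92 and 4.82 CPM against 2.88, 3.83 and 4.03 CPM, lower in each I53A library (log2 fold change -0.50 ± 0.21, adjusted p = 0.108, and adjusted p = 0.0453 with the block). The BMP antagonist Nog was at 0.393, 0.335 and 0.459 CPM against 0.665, 0.675 and 0.711 CPM (log2 fold change 0.79 ± 0.40, adjusted p = 0.157). Grem1, another BMP antagonist, was too low to be tested, with 0, 1 and 0 counts in wild type and 10, 7 and 7 counts in I53A libraries. Its ratio of summed counts over depth was 24.2, with a counting interval of 3.94 to 993.5.

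**Figure D1:**
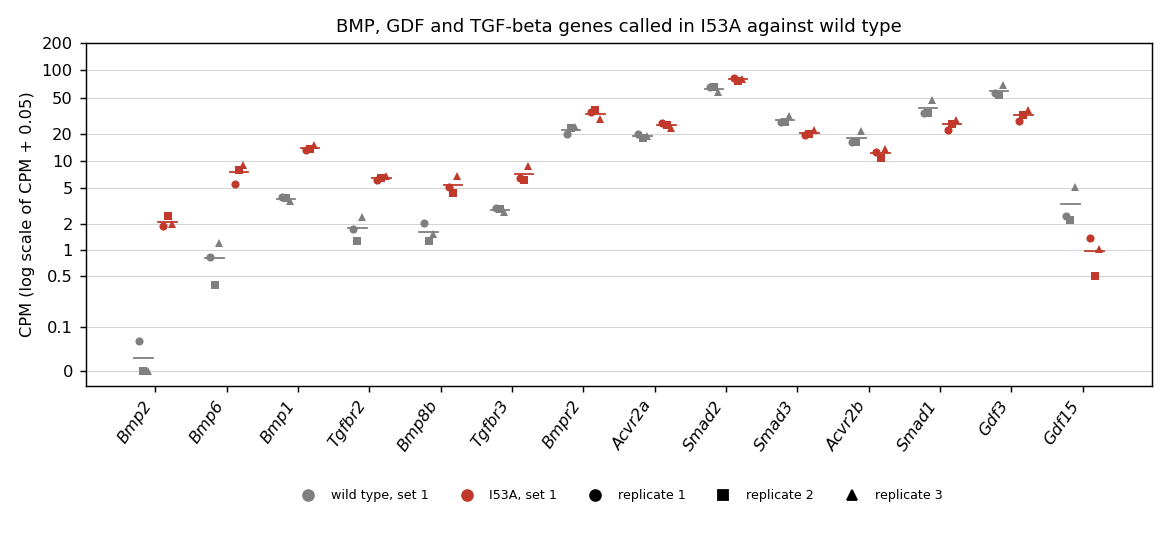
CPM of the 14 genes called in I53A against wild type, ordered from the largest rise (left) to the largest fall (right), on a log scale after adding 0.05. Points are libraries with replicates by shape, bars are group means, grey is wild type and red is I53A. The red points lie above the grey points for the 9 genes from Bmp2 to Smad2 and under them for the 5 genes from Smad3 to Gdf15.

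The second comparison asks which of the genes differ in the libraries labelled QKO. Of 32 genes tested, 10 rose and 9 fell (edgeR, adjusted over 15439 genes). That is 59.4% of the tested genes, close to the 57.7% called among all genes (28.7% higher and 29% lower), so that the number of calls is near the background. Most changes were small: 5 of the 32 were called at 2-fold or more, against 11.9% of all genes. These 5 were the rises of Tgfb2 and Bmpr1b and the falls of Chrd, Tgfbr2 and Bmp7. The groups did not overlap in 21 of 32 genes, beside 61.5% of all genes, and the median log2 fold change was -0.05 against -0.0033 over all genes.

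Among 5 tested BMP-type ligands, Bmp4 and Bmp6 rose and Bmp7 fell. That is 60% of them, near the 57.7% called among all genes. Bmp4 was at 32.5, 34.2 and 37.6 CPM in wild type and 41.7, 42.6 and 41.5 CPM in libraries labelled QKO. The 3 QKO-labelled libraries lay within 2 CPM of each other and above all wild type libraries, and the log2 fold change was 0.27 ± 0.07 (adjusted p = 0.000512). Bmp7 was at 14.7, 11.6 and 15.4 CPM against 7.52, 6.96 and 6.13 CPM, with a clear gap between the groups and a log2 fold change of -1.02 ± 0.12 (adjusted p = 3.35e-10). Bmp6 was at 1.04, 0.992 and 1.34 CPM against 1.75, 1.37 and 2.62 CPM, a narrow separation that gave 0.77 ± 0.30 (adjusted p = 0.0239). That call rested on replicate 3: without that library the adjusted p was 0.26. It was 0.0607 and 0.0786 without wild type replicates 1 and 2, and 0.0622 with DESeq2 on all libraries. Bmp8a and Bmp8b overlapped between groups, at -0.17 ± 0.49 (adjusted p = 0.786) and 0.10 ± 0.24 (adjusted p = 0.738). Bmp2 had 1, 0 and 2 counts in wild type and 5, 7 and 6 in libraries labelled QKO, too few to be tested, and its ratio over depth was 5.61 with a counting interval of 1.64 to 29.8.

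Of 4 tested GDF ligands none was called in the libraries labelled QKO by edgeR or DESeq2, and none had an unadjusted p under 0.05. Gdf3 was at 41.3, 48.8 and 42.9 CPM in wild type and 40.8, 42.9 and 38 CPM in libraries labelled QKO, overlapping (log2 fold change -0.13 ± 0.07, adjusted p = 0.0934). It passed as lower without wild type replicate 1 (adjusted p = 0.0276) or 3 (0.0443). Gdf15 was at 9.23, 10.1 and 11.6 CPM against 9.57, 8.7 and 10.8 CPM, also overlapping (log2 fold change -0.09 ± 0.12, adjusted p = 0.543). Both tested TGF-beta ligands rose, where 28.7% of all genes were called higher. Tgfb1 was at 14.4, 13 and 16 CPM against 19.1, 18.6 and 18.4 CPM and rose by 0.36 ± 0.09 (adjusted p = 0.000789) on the log2 scale. Tgfb2 was at 0.348, 0.165 and 0.51 CPM against 0.812, 1.49 and 1.36 CPM, a low level on both sides but without overlap (log2 fold change 1.76 ± 0.43, adjusted p = 0.000405). Tgfb3 did not pass the count filter, with 7, 13 and 23 counts in wild type and 9, 0 and 3 in libraries labelled QKO. Bmp1 was at 4, 3.75 and 4.22 CPM against 3.59, 4.1 and 3.88 CPM in this set (log2 fold change -0.06 ± 0.18, adjusted p = 0.804).

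Every one of the 6 tested type I receptors was called in the libraries labelled QKO, where 57.7% of all genes were. The BMP receptors Bmpr1a and Bmpr1b and the TGF-beta receptor Tgfbr1 rose. Bmpr1a was at 128, 123 and 116 CPM in wild type and 172, 169 and 167 CPM in libraries labelled QKO, a gap far wider than the spread on either side (log2 fold change 0.47 ± 0.04, adjusted p = 3.43e-13). Bmpr1b was at 1.8, 1.65 and 0.696 CPM against 2.99, 3.36 and 3.09 CPM, and Tgfbr1 at 45.4, 44.6 and 40.8 CPM against 56.3, 52.3 and 52.7 CPM. Neither pair overlapped, and the log2 fold changes were 1.21 ± 0.26 (adjusted p = 9.12e-05) for Bmpr1b and 0.31 ± 0.06 (adjusted p = 2.46e-05) for Tgfbr1. The receptors Acvr1, Acvr1b and Acvrl1 fell. Acvr1b was at 65.3, 64.4 and 71.3 CPM against 44.8, 43.1 and 47.4 CPM, with a log2 fold change of -0.57 ± 0.06 (adjusted p = 3.85e-12). Acvr1 was at 11.4, 10.0 and 10.5 CPM against 7.99, 8.2 and 8.1 CPM (log2 fold change -0.39 ± 0.12, adjusted p = 0.00385), and Acvrl1 at 3.95, 4.52 and 4.87 CPM against 1.97, 1.86 and 3.09 CPM (log2 fold change -0.94 ± 0.20, adjusted p = 9.34e-05). In each of the 3 the highest QKO-labelled library was under the lowest wild type library.

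Type II receptors were mixed in this set, where 57.7% of all genes were called. Acvr2a rose, from 20.4, 24.4 and 20.0 CPM to 27.3, 24 and 28.3 CPM, with overlapping groups and a log2 fold change of 0.30 ± 0.08 (adjusted p = 0.00173). Acvr2b was at 21.4, 23 and 26.4 CPM against 17.7, 17.4 and 19.2 CPM and changed by -0.39 ± 0.09 (adjusted p = 0.000142). Tgfbr2 was at 1.68, 1.71 and 2.41 CPM against 0.684, 1.06 and 0.749 CPM. Its groups did not overlap, at under 3 CPM throughout, and the log2 fold change was -1.26 ± 0.32 (adjusted p = 0.000609). Bmpr2 was at 38.2, 40.1 and 40.4 CPM against 41.4, 44.8 and 44.9 CPM and did not pass (log2 fold change 0.14 ± 0.06, adjusted p = 0.0559). Bmpr2 passed as higher with RLE size factors (adjusted p = 0.0445), a filter of 1 CPM in 3 libraries (0.039) or the replicate block (0.0358), and without wild type replicate 3 (0.0493) or QKO replicate 1 (0.0371). The co-receptor Tgfbr3 was at 1.51, 1.65 and 1.34 CPM against 2.52, 2.24 and 3.65 CPM and rose by 0.91 ± 0.25 (adjusted p = 0.00161) on the log2 scale.

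Among the SMADs only Smad3, Smad6 and Smad7 were called in the libraries labelled QKO, where 57.7% of all genes were. Smad3 was at 23.8, 27 and 23.3 CPM in wild type and 21.2, 18.6 and 17.5 CPM in libraries labelled QKO (log2 fold change -0.37 ± 0.09, adjusted p = 0.000253). The inhibitory pair split. Smad6 was at 9.57, 8.87 and 10.9 CPM against 6.92, 5.47 and 5.99 CPM, a log2 fold change of -0.67 ± 0.13 (adjusted p = 1.92e-05). Smad7 was at 88.3, 105 and 100.2 CPM against 111, 106 and 112 CPM, with a log2 fold change of 0.17 ± 0.05 (adjusted p = 0.00474) that lost its call without wild type replicate 1 (adjusted p = 0.132). The abundant Smad2, at 57.6, 53.1 and 57.2 CPM against 57, 52 and 59.3 CPM, Smad4, at 122, 125 and 121 CPM against 120.5, 119 and 117 CPM, and Smad5, at 64.2, 64.6 and 63.9 CPM against 64.2, 70.2 and 67.1 CPM, were not called. Their log2 fold changes were 0.01 ± 0.06 (adjusted p = 0.923), -0.05 ± 0.05 (adjusted p = 0.405) and 0.06 ± 0.05 (adjusted p = 0.336). Smad1 had a log2 fold change of -0.14 ± 0.08 (adjusted p = 0.0973) and passed as lower without wild type replicate 1 (adjusted p = 0.0221). Smad9 was not tested in this set.

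Chordin had the largest fall among the 9 genes called lower. Chrd was at 7.89, 7.83 and 6.91 CPM in wild type and 3.12, 2.98 and 3.04 CPM in libraries labelled QKO. The 3 QKO-labelled libraries nearly coincided, and the log2 fold change was -1.30 ± 0.16 (adjusted p = 9.13e-10). Fst was lower in each QKO-labelled library, at 1.45, 2.09 and 1.53 CPM against 1.28, 0.994 and 1.08 CPM, and did not pass (log2 fold change -0.58 ± 0.30, adjusted p = 0.0964). Nog and Grem1 did not reach the count filter. Nog had 1, 4 and 1 counts in wild type and 19, 2 and 8 counts in libraries labelled QKO, with overlapping groups.

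**Figure D2:**
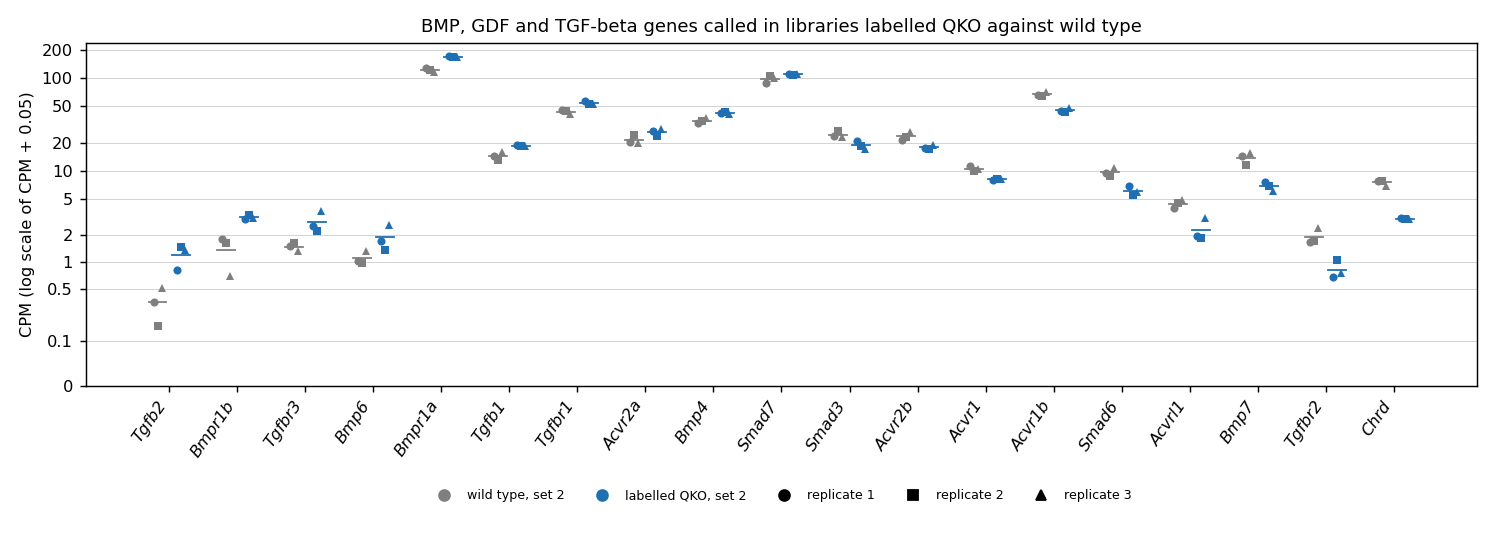
CPM of the 19 genes called in libraries labelled QKO against wild type, ordered from the largest rise (left) to the largest fall (right), on a log scale after adding 0.05. Points are libraries with replicates by shape, bars are group means, grey is wild type and blue is labelled QKO. Blue points are above grey for the 10 genes from Tgfb2 to Smad7, with overlap in Acvr2a, and under grey for the 9 genes from Smad3 to Chrd.

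Across both comparisons 27 of the 49 genes were called at least once and 6 were called in both, which is 42.9% of the calls in I53A and 31.6% of those in libraries labelled QKO. Among all genes 57.7% were called in libraries labelled QKO and 35.5% in I53A. The share of all genes called in both was not taken, so the overlap is not read as large or small. Acvr2a, Bmp6 and Tgfbr3 were higher and Acvr2b and Smad3 lower in both mutants, and Tgfbr2 went opposite ways. The sets have their own wild type libraries. The difference between the effects, I53A less libraries labelled QKO, was tested over all 12 libraries for 36 of the genes. It was called for 15 of them, 10 positive and 5 negative (41.7%, against 36.1% of 16501 genes tested, 18% positive and 18.1% negative), with a median difference of 0.16 against 0.0010 over all genes. Without replicate 3 of set 1, 21 were called, beside 7828 of 16815 genes.

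The receptor Tgfbr2 differed most clearly in direction, by 3.14 ± 0.37 (adjusted p = 1.29e-05) on the log2 scale. For Bmp1, Bmp6 and Bmp8b the effect was higher in I53A, by 1.94 ± 0.19 (adjusted p = 2.37e-06), 2.49 ± 0.49 (adjusted p = 0.00115) and 1.67 ± 0.35 (adjusted p = 0.00166). Of these only Bmp6 was also called higher in libraries labelled QKO. Chrd, Acvrl1 and Acvr1b, which fell in the libraries labelled QKO, had positive differences of 1.43 ± 0.21 (adjusted p = 0.00011), 1.50 ± 0.29 (adjusted p = 0.00104) and 0.40 ± 0.11 (adjusted p = 0.0109). Bmpr2, 0.47 ± 0.14 (adjusted p = 0.0146), and Smad2, 0.35 ± 0.11 (adjusted p = 0.0171), were also positive. The call of Bmpr2 was lost without QKO replicate 1 (adjusted p = 0.0508), and that of Smad2 without wild type replicate 1 or 3 or QKO replicate 2 of set 2 (0.0522, 0.054 and 0.0671). Bmp2 was positive too, but its difference of 3.90 ± 1.44 (adjusted p = 0.0461) rests on 3 counts in set 2 wild type and was lost in 13 of 19 alternatives, at up to adjusted p = 0.275 without wild type replicate 3 of set 2. Negative differences were found for the falls of Gdf3, -0.74 ± 0.16 (adjusted p = 0.00192), and Gdf15, -1.60 ± 0.44 (adjusted p = 0.0113), in I53A and for the rise of Bmpr1a, -0.62 ± 0.09 (adjusted p = 7.01e-05), in libraries labelled QKO. Those of Bmp4, -0.35 ± 0.12 (adjusted p = 0.033), and Tgfb2, -2.18 ± 0.74 (adjusted p = 0.0326), were lost in 8 and 7 of 19 alternatives, at up to adjusted p = 0.0883 for Bmp4 without I53A replicate 1 and 0.109 for Tgfb2 without wild type replicate 2 of set 1. The shared falls of Smad3, -0.08 ± 0.14 (adjusted p = 0.695), and Acvr2b, -0.14 ± 0.18 (adjusted p = 0.587), and the shared rise of Acvr2a, 0.13 ± 0.14 (adjusted p = 0.515), were not shown to differ between mutants.

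**Figure D3:**
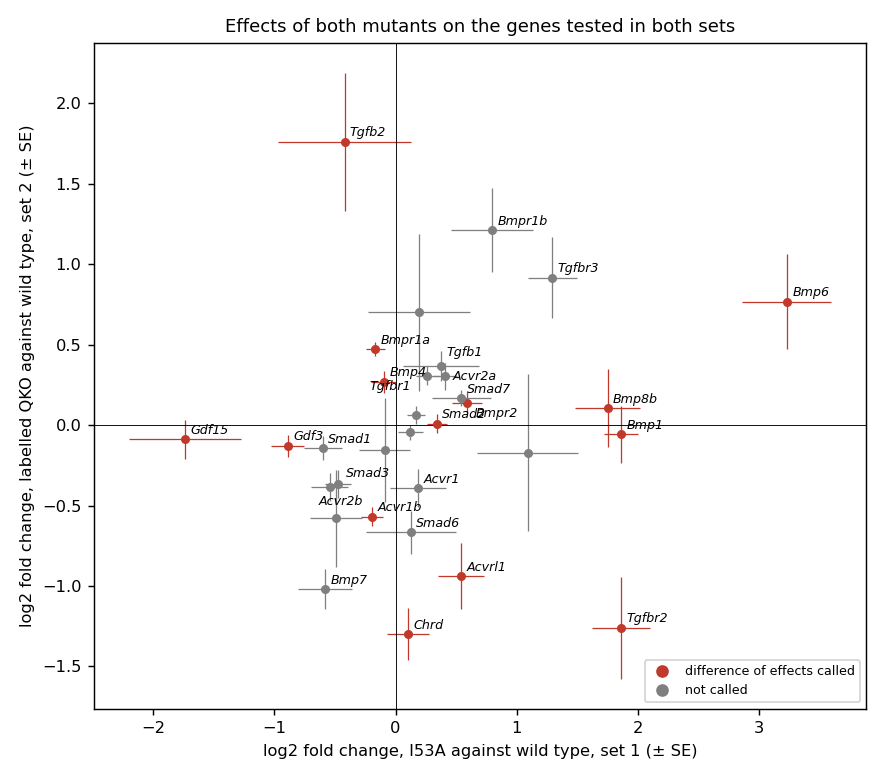
Log2 fold changes of the 32 genes tested in both sets, I53A against wild type (horizontal) and libraries labelled QKO against wild type (vertical), with bars for the SE. Red points are genes whose difference of effects was called, grey points are not, and names mark genes called in either comparison. Bmp6 lies far right, Tgfbr2 lies right and under the horizontal line, and Tgfb2 is the highest point.

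Other genes of the pathway were taken from fixed lists. Of 6 tested further ligands, Nodal and Inhbb rose and Inha, Lefty1 and Lefty2 fell in I53A, and the same 5 genes moved the same ways in the libraries labelled QKO, where 5 were tested. Over all genes 35.5% and 57.7% were called, and the counts of this and the following lists stand beside these shares. Nodal, the ligand that LEFTY proteins inhibit, was at 87.7, 84.7 and 78.5 CPM against 152, 145 and 131 CPM in set 1 (log2 fold change 0.77 ± 0.08, adjusted p = 0.000295) and changed by 0.18 ± 0.07 (adjusted p = 0.0194) in set 2. Its inhibitor and target Lefty1 was at 16.5, 14.6 and 16.2 CPM against 2.94, 3.77 and 2.53 CPM (log2 fold change -2.34 ± 0.17, adjusted p = 4.75e-05). The inhibin subunit gene Inha was low and fell by log2 fold changes of -1.75 ± 0.35 (adjusted p = 0.00569) in I53A and -2.18 ± 0.30 (adjusted p = 2.41e-08) in libraries labelled QKO. In set 2 Lefty2 fell from 188, 172 and 182 CPM to 51.3, 49.3 and 48.1 CPM (log2 fold change -1.86 ± 0.05, adjusted p = 4.86e-36).

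Of 8 further receptors and co-receptors, 1 rose and 1 fell in I53A (3 and 1 with the block), and 2 rose and 2 fell in libraries labelled QKO. The Nodal co-receptor Tdgf1 rose in I53A by 0.99 ± 0.16 (adjusted p = 0.00219), and Neo1 fell (log2 fold change -0.23 ± 0.07, adjusted p = 0.0309). In libraries labelled QKO the BMP co-receptor Rgma rose (log2 fold change 1.24 ± 0.32, adjusted p = 0.000901) and its relative Hfe2 fell (log2 fold change -0.92 ± 0.23, adjusted p = 0.000672). Among further secreted regulators and processing proteins, 7 of 15 rose and 3 fell in I53A, and 4 of 14 rose and 6 fell in libraries labelled QKO. All genes were called higher at 18.1% and lower at 17.4% in I53A, and at 28.7% and 29% in libraries labelled QKO. With the replicate block 8 of these regulators rose and 4 fell in I53A. The BMP-binding protein gene Bmper had 4 counts over the wild type group and 477 over I53A, at 11, 8.89 and 9.48 CPM (log2 fold change 6.77 ± 0.43, adjusted p = 2.09e-05). Bmper passed the count filter only through its I53A libraries. Crim1, which tethers BMPs at the cell surface, was at 6.35, 6.31 and 7.03 CPM against 27.9, 26.1 and 32.3 CPM in set 1 (log2 fold change 2.13 ± 0.13, adjusted p = 1.72e-05). In set 2 the chordin relative Chrdl1 rose (log2 fold change 3.44 ± 0.42, adjusted p = 7.73e-10), whereas Twsg1, which acts with chordin, was at 75.3, 75.5 and 78.1 CPM against 31.2, 30.4 and 33.5 CPM (log2 fold change -1.26 ± 0.06, adjusted p = 6.42e-25).

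Of 19 intracellular regulators of SMADs, 6 fell and 1 rose in I53A, and 10 fell and 4 rose in libraries labelled QKO. These calls are 36.8% and 73.7% of the list, beside 35.5% and 57.7% of all genes. With the replicate block the set 1 numbers were 8 lower and 6 higher. Foxh1, the DNA-binding partner of SMAD2, was at 47.9, 50.4 and 51.7 CPM against 29.9, 31.8 and 34.4 CPM in I53A (log2 fold change -0.64 ± 0.09, adjusted p = 0.000996), and the corepressor Tgif2 fell as well (log2 fold change -0.61 ± 0.10, adjusted p = 0.00217). In libraries labelled QKO the ubiquitin ligase gene Nedd4l rose (log2 fold change 0.96 ± 0.07, adjusted p = 3.2e-16) and the phosphatase gene Ppm1a fell (log2 fold change -0.61 ± 0.04, adjusted p = 1.47e-17).

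Some genes often read as a response to BMP rose in each mutant. Of 6 tested in I53A, Id3, Msx1 and Msx2 rose and none fell (with the block Id2 was also higher and Id4 lower), and of 5 tested in libraries labelled QKO, Id2, Id3 and Msx2 rose. Over all genes 18.1% were higher in I53A and 28.7% in libraries labelled QKO. Id1, the most abundant of them, was at 154, 154 and 130.3 CPM in wild type and 156, 149 and 157 CPM in I53A, overlapping (log2 fold change 0.08 ± 0.08, adjusted p = 0.522), and changed by 0.02 ± 0.06 (adjusted p = 0.788) in set 2. Id3, an inhibitor of basic helix-loop-helix factors like Id1, was at 37.6, 35.9 and 28.1 CPM against 80.2, 68.5 and 67.3 CPM in set 1. In set 2 it was at 15.5, 14.8 and 15.3 CPM against 34.3, 28 and 29.7 CPM. The log2 fold changes of Id3 were 1.09 ± 0.13 (adjusted p = 0.00046) and 1.02 ± 0.08 (adjusted p = 3.33e-15). The homeobox genes Msx1 and Msx2 were far lower, and Msx1 was at 0.112, 0.335 and 0.153 CPM against 2.05, 1.46 and 1.66 CPM in I53A (log2 fold change 3.04 ± 0.46, adjusted p = 0.00145). Msx1 passed the count filter only through its I53A libraries. Msx2 changed by 2.16 ± 0.29 (adjusted p = 0.000849) in I53A and 1.35 ± 0.21 (adjusted p = 2.1e-07) in libraries labelled QKO.

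Of the genes often read as a response to TGF-beta, the following are given. The matricellular gene Cyr61 was at 14.1, 15.5 and 18.4 CPM against 47.3, 49.9 and 56.2 CPM in set 1, without overlap, and rose (log2 fold change 1.68 ± 0.12, adjusted p = 4.53e-05). In set 2 it was not called (log2 fold change -0.02 ± 0.13, adjusted p = 0.923). Its relative Ctgf rose in both sets, by 1.14 ± 0.15 (adjusted p = 0.000841) on the log2 scale in I53A and by 1.01 ± 0.19 (adjusted p = 8.61e-06) in libraries labelled QKO. Pmepa1, a feedback inhibitor of TGF-beta signalling, was at 15.1, 15.2 and 24.5 CPM against 25.3, 26.3 and 43.1 CPM in set 1 with replicate 3 high in both groups (log2 fold change 0.79 ± 0.27, adjusted p = 0.0554, and adjusted p = 9.76e-07 with the block). In set 2 it was at 28.6, 29.4 and 33.1 CPM against 19.9, 19.4 and 20.8 CPM and fell (log2 fold change -0.60 ± 0.08, adjusted p = 4.49e-09). The matrix protein gene Tgfbi was not called in I53A (log2 fold change -0.09 ± 0.19, adjusted p = 0.751) and fell in libraries labelled QKO (log2 fold change -0.75 ± 0.11, adjusted p = 4.67e-08).

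**Figure D4:**
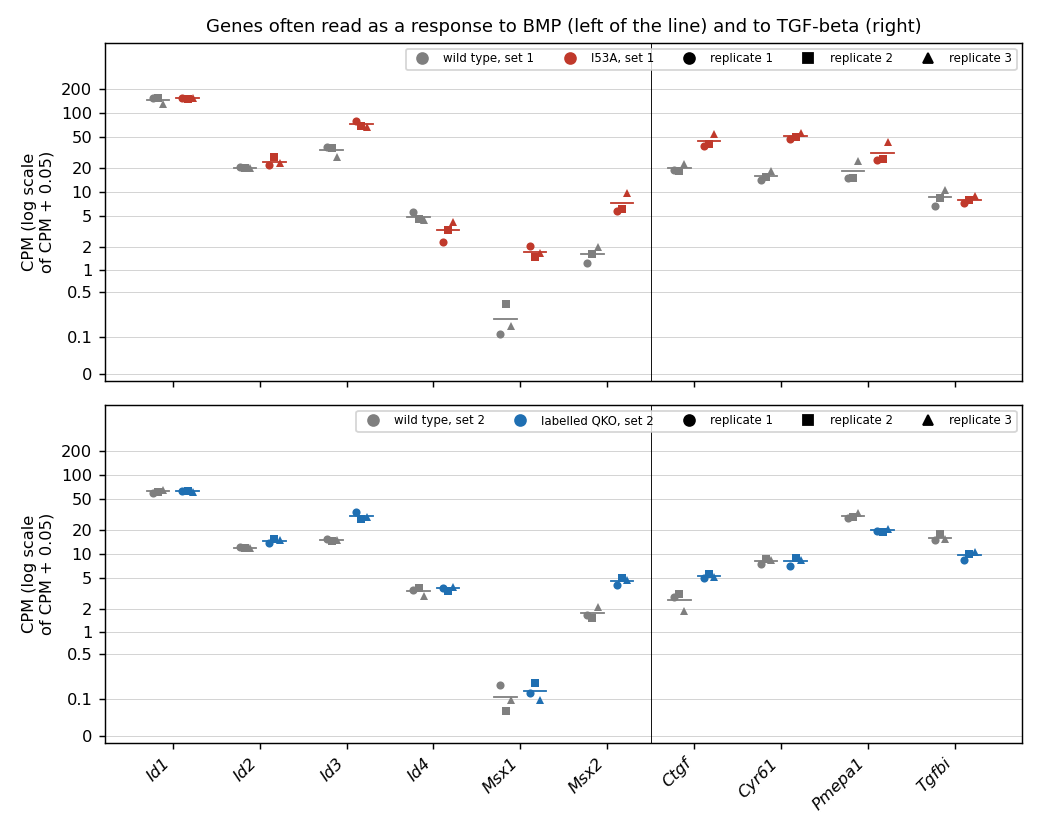
CPM of genes often read as responses to BMP (left of the vertical line) and to TGF-beta (right) in set 1 (top) and set 2 (bottom), on a log scale after adding 0.05. Points are libraries with replicates by shape and bars are group means. Id1 points lie close together in both panels, Id3 and Msx2 lie higher in both mutants, and Cyr61 lies higher in I53A.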

How the data were processed

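Each of the 12 RNA libraries has a table of raw counts, deposited by the authors and used as it stands. Per the file headers, fragments were counted per gene name with featureCounts 1.6.3 on an mm9 annotation, with no strand option, so overlapping and antisense genes cannot be told apart. The submitters' processing notes name HISAT2 and DESeq2 without versions. The names of the counted alignments point to TopHat in set 1 but not in set 2, so it is not settled which aligner each set had. The chromatin samples among the 93 of the series were not analysed here. Some genes of the lists are not reported here. The 49 genes and the lists were chosen with earlier results of these data known.

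Counts were filtered with filterByExpr, scaled by TMM over the 6 libraries of a set and tested with edgeR 4.0.16 (quasi-likelihood, robust; R 4.3.3), two-sided, with Benjamini-Hochberg adjustment over all genes tested. The difference of effects was an interaction over 12 libraries. CPM and RPKM were computed from the deposited counts and exon lengths. Values follow ± SD for levels and ± SE for log2 fold changes, with n = 3 per group. Intervals and floors (3 counts over a group) cover counting error only, as reads have no molecular identifiers. Values per library were given for genes called in either comparison or at 50 CPM or more, and of each pathway list the 2 largest called changes per comparison, with a few others named after their values were seen. No 2 replicates agreed within sampling noise. The procedure was tested on simulated counts.

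Deviations of same-numbered libraries from their group means correlated across genes at 0.342, 0.397 and 0.615 in set 1, so the numbers were taken to pair those libraries. Numbers 1 and 2 were hardly told apart: I53A 1 with wild type 2 gave 0.335 and I53A 2 with wild type 1 gave 0.303, while replicate 3 with the other numbers gave -0.496 to -0.434. The names of the deposited tables give I53A replicates 1 and 2 each other's number. The labels were followed, and a block with the exchanged numbers was added after seeing the data. In set 2 the values were 0.028, -0.009 and 0.081, and no pairing was taken. Alternatives were RLE size factors, DESeq2 1.42.0, no filter or 1 CPM in 3 libraries, the replicate block, a spread from all 12 libraries, set 1 without replicate 3, and each library left out in turn.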

Additional observations from a re-analysis of the deposited data

Results flagged for a closer look

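Tgfbr2 was called in opposite directions in the 2 mutants, higher in I53A and lower in libraries labelled QKO. The difference between the effects was itself tested over all 12 libraries and came to 3.14 ± 0.37 (adjusted p = 1.29e-05) on the log2 scale, and it was called under all 19 alternatives.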

How the results depend on the processing

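Against 9 members higher and 5 lower in I53A, the replicate block gave 16 and 9 (15 and 8 with I53A replicates 1 and 2 exchanged), a spread from all 12 libraries gave 14 higher, and set 1 replicates 1 and 2 alone gave 8 lower. Leaving out each library in turn gave 7 to 12 higher and 2 to 6 lower in I53A, with 2 lower without I53A replicate 1 and again without I53A replicate 2. Calls over all genes moved as well, from 5512 of 15536 as reported. They were 3828 of 15914 without I53A replicate 1, 4132 of 15878 without I53A replicate 2 and 7280 of 16501 with a spread from all 12 libraries. The other counts stayed within 1.5 times of the reported ones: 8 to 12 higher and 9 to 12 lower in libraries labelled QKO, and 11 to 19 called differences, with each library left out in turn. In set 2 the replicate numbers do not pair the libraries, and the block gave 11 higher and 9 lower. The block gave 19 called differences with either numbering, beside 8076 and, with the numbers exchanged, 7797 of 16501 genes. No called value changed sign under any alternative. Of the called genes, 8 of 14 in I53A and 14 of 19 in libraries labelled QKO kept their call under all alternatives, as did 10 of 15 differences. The calls of Acvr1, Smad6 and Tgfb1 in libraries labelled QKO were lost with a spread from all 12 libraries, at adjusted p = 0.0921, 0.0856 and 0.299 (0.548 for Smad7 and 0.0888 for Bmp6), and the cause was not tested. Gdf9 passed as higher in libraries labelled QKO without wild type replicate 3 (log2 fold change 1.68, adjusted p = 0.0246). Without replicate 3 of set 1, Tgfb2 passed as lower in I53A (log2 fold change -1.25, adjusted p = 0.0489). The 13 genes of set 1 and 17 of set 2 that were not tested had at most 10 and 23 counts in any library. Depth limits what can be said of them, and for Gdf1, Bmp5 and Gdf5 so do the exon bases shared with other genes.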

Other observations

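The wild type groups of both sets share a cell line and genotype by their labels, and their levels are set side by side. Of 36 of the genes tested in either set, 21 (58.3%) did not overlap between the wild type groups, beside 64.9% of all genes. The following 4 were chosen after their values were seen. Gdf15 was at 2.47, 2.23 and 5.2 CPM in set 1 wild type and 9.23, 10.1 and 11.6 CPM in set 2 wild type, and Gdf11 was at 4.44, 6.08 and 3.82 against 1.68, 1.21 and 1.11 CPM. Smad7 was at 37.4, 32.2 and 56.8 against 88.3, 105 and 100.2 CPM, and Fst at 4.33, 5.92 and 4.82 against 1.45, 2.09 and 1.53 CPM. Scaling was taken within each set and the counted alignments are not named alike, so no test was made.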
